A study of Mus musculus with 10 samples.

Results

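The genes described here are induced by interferon: Ifit1, Ifit2, Ifit3, Usp18, Isg15, Irf7, Stat2, Oasl2 and Rsad2. A gene entered when a probe set on the array carried its symbol and no other, and where several did, the brightest by its mean over the 10 arrays stood for it. This gave 8 of the 9 named genes, out of 12393 genes measured. Isg15 was dropped, because its probe set also carries the symbol Gm9706. The probe sets were chosen by their mean over the arrays. The genes themselves were chosen with values of these arrays known, and which comparison led to them is not recorded. Their levels and differences are therefore a description, and the adjusted p-values below only place a difference against the spread between arrays. The label describes them as interferon-induced genes followed from crypt to villus. Their levels were high in the villus group and also in 1 of the crypt groups, so they did not order the samples by position along that axis.

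RNA came from the intestinal epithelium of C57BL/6 mice and was hybridised to 10 Affymetrix mouse 430A 2.0 arrays, in 5 groups of 2. Stem cells (ISC) were sorted by flow cytometry on green fluorescent protein from Lgr5-eGFP-Cre mice. Crypt secretory progenitors (Sec-Pro) came from crypts in which the population was enriched either by deletion of Rbpj, the DNA-binding partner of Notch (Rbpj Sec-Pro), or by treating mice with dibenzazepine, an inhibitor of Notch signalling (DBZ Sec-Pro). The group Ent-Pro (progenitors of enterocytes) consists of crypts, and the group ENT (mature villus enterocytes) of villi, from Atoh1-/- mice, which per the labels have no secretory cells. Only ISC were sorted, so the other 4 groups are epithelial fractions released by EDTA and hold every cell that came off with them. All groups share the strain. Ages, doses, times of treatment, the Cre driver of either deletion and whether the arrays of a group come from separate animals are not given in the sources used here, so a p-value here reflects only how far these arrays spread, which can be technical.

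The labels were checked against the arrays. Rbpj read 6.74 and 6.62 (log2) in Rbpj Sec-Pro, against 8.26 and 8.31 in DBZ Sec-Pro and 8.07 to 8.22 in ISC and Ent-Pro, but in ENT it also read at most 7.21. Atoh1 lay between 4.97 and 5.78 in Ent-Pro and ENT and between 7.68 and 11.85 in the other groups. Lgr5 was 11.36 and 11.06 in ISC and at most 8.80 elsewhere. The mean of 10 enterocyte markers was 9.86 and 9.71 in ISC, lay between 11.74 and 12.92 in the 3 crypt fractions, and reached 13.23 and 13.33 in ENT. Goblet cell markers, which Notch blockade raises, were high in both Sec-Pro groups (list means 12.88 to 13.57), but ISC also held them at 10.41 and 10.64. All 6 tuft cell markers measured were higher in ENT than in Ent-Pro, although both lack Atoh1. Markers of T and intraepithelial lymphocytes were present in every unsorted fraction, with list means of 6.12 to 8.81 against 5.40 and 5.62 in ISC.

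Interferons are secreted proteins that warn cells of infection. Type I interferons bind the receptor Ifnar1/Ifnar2 and type III interferons, to which the gut epithelium responds strongly, bind Ifnlr1/Il10rb. Either receptor activates the kinases Jak1 and Tyk2, and Stat2, once phosphorylated, acts with Irf9 in a complex called ISGF3. ISGF3 binds the interferon-stimulated response element (ISRE) in promoters of its target genes, while interferon gamma acts mainly through the gamma-activated site (GAS). Among the members, Stat2 is part of ISGF3 and Irf7 is a transcription factor that amplifies interferon production. Usp18 removes the ubiquitin-like protein Isg15 from its targets and blocks the type I receptor. Ifit1, Ifit2, Ifit3, Oasl2 and Rsad2 are antiviral effectors. Ifnlr1 was not analysed here.

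The promoters are shown because the ISRE is the element through which ISGF3 acts on its targets. The RefSeq-derived table (build GRCm38.p6) held a window for 7 members, and the 250 bases before the start were searched on both strands. The core of the ISRE was searched as GAAA, 2 bases of any kind and GAAA again, which on the other strand reads as TTTC, 2 bases of any kind and TTTC. Of the 7 members with a window, 4 held it, in the sequences below, written 5′ to 3′ on the strand of the gene and ending at the base before the start. Capitals mark the core.
Ifit1: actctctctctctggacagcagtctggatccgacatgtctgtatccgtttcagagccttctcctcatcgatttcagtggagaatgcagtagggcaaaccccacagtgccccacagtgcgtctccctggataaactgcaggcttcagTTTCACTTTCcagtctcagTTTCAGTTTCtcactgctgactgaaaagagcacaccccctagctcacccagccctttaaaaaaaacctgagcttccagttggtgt
Ifit3: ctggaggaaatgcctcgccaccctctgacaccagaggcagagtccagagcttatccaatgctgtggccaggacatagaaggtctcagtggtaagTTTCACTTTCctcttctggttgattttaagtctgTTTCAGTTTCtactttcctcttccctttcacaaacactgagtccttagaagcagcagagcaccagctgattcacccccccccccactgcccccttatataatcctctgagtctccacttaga
Rsad2: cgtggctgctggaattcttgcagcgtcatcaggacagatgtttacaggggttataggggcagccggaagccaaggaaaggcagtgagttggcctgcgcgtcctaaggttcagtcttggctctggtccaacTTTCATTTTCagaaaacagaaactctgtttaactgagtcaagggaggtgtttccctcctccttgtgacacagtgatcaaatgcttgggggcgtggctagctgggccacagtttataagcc
Stat2: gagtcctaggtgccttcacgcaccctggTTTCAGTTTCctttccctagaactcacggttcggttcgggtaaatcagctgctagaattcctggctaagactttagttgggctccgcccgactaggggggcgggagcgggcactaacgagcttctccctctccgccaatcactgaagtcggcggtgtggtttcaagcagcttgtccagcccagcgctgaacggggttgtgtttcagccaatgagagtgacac
The windows lie at chr19:34640639-34640888 (plus strand) for Ifit1, chr19:34583279-34583528 (plus strand) for Ifit3, chr12:26456453-26456702 (minus strand) for Rsad2 and chr10:128270248-128270497 (plus strand) for Stat2. Ifit1 and Ifit3 each hold 2 copies, which in both genes are TTTCACTTTC followed by TTTCAGTTTC. In Ifit1 the copies begin 104 and 85 bases before the start, and in Ifit3 they begin 156 and 122 bases before it. Rsad2 has TTTCATTTTC, beginning 120 bases before the start. Stat2 has TTTCAGTTTC, beginning 222 bases before it. Over the whole table the core occurred in 936 of 27025 genes with a window (3.46%). By window it occurred in 978 of 32851 (2.98%), with 2 or more copies in 59 (0.180%), and in 4 of the 8 windows of the members. The GAS core, searched as TTCNNNGAA, which reads the same on both strands, was found in 1 member, Ifit2, beginning 241 bases before the start, and in 2306 of all windows (7.02%). A match is a description of the letters and does not show that a factor binds there.

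**Figure D1:**
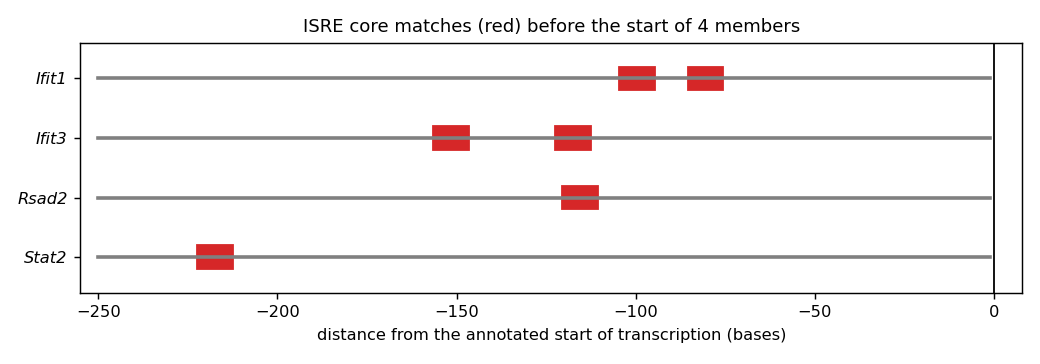
Positions of the ISRE core (red boxes) in the 250 bases before the start of Ifit1, Ifit3, Rsad2 and Stat2 (grey lines), with the distance to the start in bases on the x axis. The copies lie between 222 and 76 bases before the start, 2 each in Ifit1 and Ifit3.

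The levels of the members fell into a high set of 4 arrays, Rbpj Sec-Pro and ENT, and a low set of 6, ISC, DBZ Sec-Pro and Ent-Pro. For 7 of the 8 members every array of the high set was above every array of the low set. Over all genes 845 of 12393 (6.82%) showed this order. The exception was Ifit2, which was high in Rbpj Sec-Pro only. Group means were highest in Rbpj Sec-Pro for 6 members and in ENT for Usp18 and Stat2. Values below are log2 expression, given for the first and the second array of each group; levels of different genes are not compared, since each probe set has its own response.

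Stat2, the subunit of ISGF3, had the narrowest range of the 7 members with this order. It read 6.28 and 6.90 on the ISC arrays, 6.21 and 6.33 on those of Ent-Pro, 6.26 and 6.37 on those of DBZ Sec-Pro, 7.33 and 7.02 on those of Rbpj Sec-Pro and 7.69 and 7.52 on those of ENT. The second ISC array came close to the lower Rbpj Sec-Pro array without overlapping it, and ENT was above all other arrays. Irf7, the amplifying transcription factor, read 7.30 and 7.40 on the ISC arrays, 7.40 and 7.34 on those of Ent-Pro, 7.90 and 7.85 on those of DBZ Sec-Pro, 10.04 and 8.88 on those of Rbpj Sec-Pro and 9.08 and 9.62 on those of ENT. Its ENT arrays lay between the Rbpj Sec-Pro arrays, and its DBZ Sec-Pro arrays were above those of ISC and Ent-Pro.

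Usp18, the brake on the type I receptor, read 5.23 and 4.85 on the ISC arrays, 5.83 and 6.43 on those of Ent-Pro, 6.80 and 7.20 on those of DBZ Sec-Pro, 10.63 and 9.58 on those of Rbpj Sec-Pro and 10.60 and 10.96 on those of ENT. Its low groups were also ordered without overlap, from ISC through Ent-Pro to DBZ Sec-Pro, and its ENT arrays overlapped those of Rbpj Sec-Pro.

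Ifit1, which binds RNA that lacks the methyl marks of the host cap, read 4.67 and 4.75 on the ISC arrays, 6.23 and 6.32 on those of Ent-Pro, 6.32 and 5.95 on those of DBZ Sec-Pro, 10.35 and 10.15 on those of Rbpj Sec-Pro and 7.51 and 10.08 on those of ENT. In ISC both arrays were near background, that is within 1 (log2) of the mean of 3 control probe sets for a transcript absent from mouse, and the ENT arrays stood far apart. Ifit3, which in human cells binds and stabilises IFIT1, read 4.81 and 5.32 on the ISC arrays, 5.12 and 5.14 on those of Ent-Pro, 5.26 and 4.45 on those of DBZ Sec-Pro, 8.11 and 7.57 on those of Rbpj Sec-Pro and 6.86 and 7.77 on those of ENT. The 3 low groups overlapped, with the second DBZ Sec-Pro array near background, and the ENT and Rbpj Sec-Pro arrays overlapped as well. Ifit2, another RNA-binding member of the family, read 5.64 and 5.50 on the ISC arrays, 5.48 and 5.37 on those of Ent-Pro, 5.11 and 5.32 on those of DBZ Sec-Pro, 7.06 and 6.79 on those of Rbpj Sec-Pro and 4.64 and 6.19 on those of ENT. Its first ENT array was the lowest of all arrays and near background, and its second was above all but those of Rbpj Sec-Pro.

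Oasl2, of the oligoadenylate synthetase-like family that takes part in sensing viral RNA, read 6.78 and 6.58 on the ISC arrays, 5.95 and 6.93 on those of Ent-Pro, 6.73 and 6.92 on those of DBZ Sec-Pro, 10.14 and 9.20 on those of Rbpj Sec-Pro and 8.81 and 9.34 on those of ENT. The 3 low groups overlapped. Rsad2 (viperin), an enzyme that makes a nucleotide which ends viral RNA chains, read 6.82 and 7.17 on the ISC arrays, 6.49 and 6.66 on those of Ent-Pro, 6.50 and 6.36 on those of DBZ Sec-Pro, 10.34 and 9.11 on those of Rbpj Sec-Pro and 8.30 and 9.85 on those of ENT. Both ISC arrays were above those of DBZ Sec-Pro and Ent-Pro, and the ENT arrays overlapped those of Rbpj Sec-Pro. The first Rbpj Sec-Pro array was above the second for 8 of 8 members, and the second ENT array was above the first for 7 of 8, all but Stat2. The share of all genes with these orders was not counted, so the counts describe the members only.

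**Figure D2:**
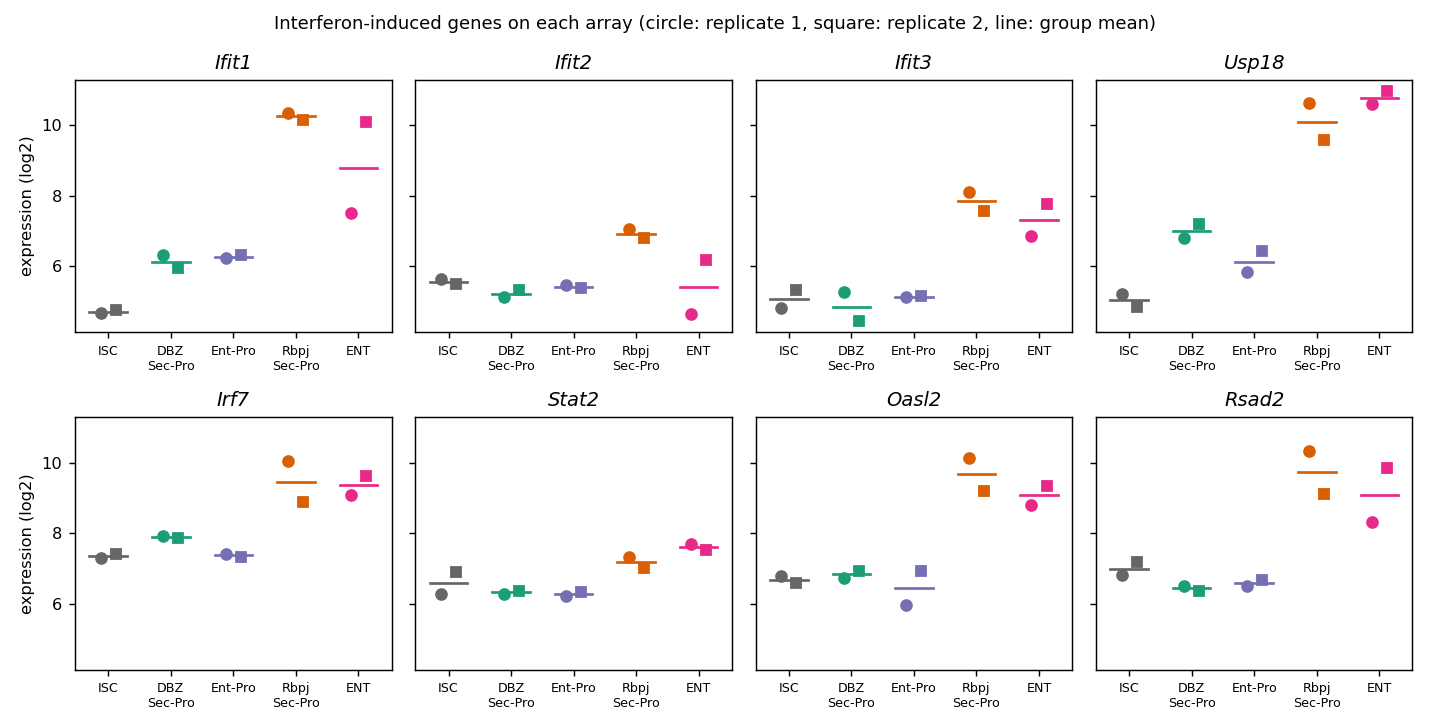
Log2 expression of each member on each of the 10 arrays (points) with group means (lines), by group. Both Rbpj Sec-Pro arrays lie above the arrays of ISC, DBZ Sec-Pro and Ent-Pro for 8 of 8 members and both ENT arrays for 7 of 8, all but Ifit2. Over all genes 6.82% had all 4 arrays of these 2 groups above the other 6. Shares for either group alone were not counted.

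Notch signalling was blocked in both Sec-Pro groups, by loss of Rbpj or by dibenzazepine, and comparing them asks whether the members distinguish the 2 ways of enrichment. All 8 were lower in DBZ Sec-Pro than in Rbpj Sec-Pro (limma on all arrays, adjusted p under 0.05 by Benjamini-Hochberg over all genes), where 7.08% of all genes were called lower. The median difference of the members, DBZ Sec-Pro minus Rbpj Sec-Pro, was -2.91 (log2) against 0.06 for all genes. Ifit1 differed most, by -4.12 ± 0.63 (SE, n = 2 arrays per group, adjusted p = 0.00626 in limma), a level 17.4-fold lower. Each SE, here and below, rests on 1 spread per gene estimated over all 5 groups. For Ifit1 this includes the ENT arrays, which read 7.51 and 10.08. Rsad2 differed by -3.29 ± 0.49 (limma adjusted p = 0.00598), 9.79-fold, and Usp18 by -3.11 ± 0.35 (limma adjusted p = 0.00223), 8.60-fold. The differences of Ifit3 and Oasl2 were 7.91-fold and 7.18-fold, that of Irf7 2.99-fold, and Stat2 had the smallest at 1.81-fold, -0.85 ± 0.20 (limma adjusted p = 0.0257).

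Single arrays mattered to how many of these differences passed. Without the second DBZ Sec-Pro array 4 members were called, since Ifit1, Ifit2, Irf7 and Stat2 had limma adjusted p of 0.0509, 0.101, 0.0919 and 0.106, and calls over all genes went from 2036 to 363. Without the first DBZ Sec-Pro array 5 were called, with Ifit2, Irf7 and Stat2 at limma adjusted p of 0.0914, 0.0534 and 0.0964. Without the first Rbpj Sec-Pro array Ifit2 (0.0868) and Stat2 (0.108) were not called in limma and the difference of Irf7 became -1.0. A fit to the 4 arrays of both groups alone called 5 members and 97 genes. Ifit3, Usp18 and Oasl2 passed in each of these fits.

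Markers of other cell types were also compared between the same arrays. Over all genes 9.34% were called higher in DBZ Sec-Pro and 7.08% lower. Of 7 goblet cell markers 3 were called higher and 1 lower, and of 8 enteroendocrine markers 3 were called higher. Also called higher were 1 of 4 Paneth cell, 1 of 4 B and plasma cell and 1 of 11 stroma and endothelium markers. Of the stem and tuft cell markers 0 were called. The mean of 12 T and intraepithelial lymphocyte markers was 8.81 and 6.84 in Rbpj Sec-Pro, against 7.12 and 7.86 in DBZ Sec-Pro, with none called and a median difference of -0.43; on the log2 scale their summed level ranged from 11.74 to 13.91 in Rbpj Sec-Pro and from 11.77 to 12.68 in DBZ Sec-Pro. The members were higher on the second Rbpj Sec-Pro array than on either DBZ Sec-Pro array in 8 of 8 cases, and the lymphocyte list was lower there than on both. The share of all genes with the order of the members was not counted. On the first Rbpj Sec-Pro array the members and the lymphocyte list were both higher than on the second, and the part of these cells in the difference was not tested. Macrophage and dendritic cell markers had list means of 6.46 and 5.82 against 6.05 and 5.90, with 1 of 12 called lower in DBZ Sec-Pro and Fcgr1 near background in both groups. Of 10 enterocyte markers 5 were lower in DBZ Sec-Pro, with list means of 12.27 and 11.74 against 12.92 and 12.71; the part of enterocyte maturity in the difference of the members was not tested. In such unsorted samples fewer cells of a type and less RNA per cell cannot be told apart.

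Comparing ENT with Ent-Pro follows enterocytes of Atoh1-/- mice from crypt to villus. Of the 8 members 7 were higher in ENT, where 18.5% of all genes were called higher. The median difference was 2.34 (log2) against 0.02 over all genes. Usp18 rose most, by 4.65 ± 0.35 (SE, n = 2 arrays per group; adjusted p = 4.89e-05 in limma), or 25.1-fold. Oasl2 rose 6.20-fold, Ifit1 5.76-fold, Rsad2 5.66-fold, Ifit3 4.55-fold and Irf7 3.95-fold. Stat2 rose by 1.34 ± 0.20 (limma adjusted p = 0.000909), 2.53-fold. Ifit2 differed by -0.01 ± 0.40 (limma adjusted p = 0.989), with its ENT arrays on either side of both Ent-Pro arrays.

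The rise of Ifit1, 2.53 ± 0.63 (limma adjusted p = 0.0117), depended on single arrays. It was 3.81 without the first ENT array and 1.24 without the second, and it was not called without the first or the second Ent-Pro array (limma adjusted p = 0.0558 and 0.0522). The other 6 calls passed without any single array. Lymphocyte markers moved the same way, with list means of 7.83 and 8.04 in ENT against 6.27 and 6.12 in Ent-Pro, summed levels of 12.74 to 13.08 against 10.65 to 10.67 on the log2 scale, 7 of 12 called higher, and Cd8b1 near background in both groups. Enterocyte markers were called higher for 8 of 10 and tuft cell markers for 6 of 6. The part of these cell types in the rise of the members was not tested.

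In the crypt itself, 1 of 8 members was called between ISC and Ent-Pro. It was higher in Ent-Pro, where 12.1% of all genes were called higher, a share near that of the members. In either direction 3165 of 12393 genes were called. ISC were sorted cells of Lgr5-eGFP-Cre mice, while Ent-Pro and ENT were unsorted fractions of Atoh1-/- mice. Genotype, sorting and position therefore cannot be told apart in comparisons with ISC. Usp18 was higher in Ent-Pro by 1.10 (limma adjusted p = 0.047), a call that was lost when any single array of ISC, DBZ Sec-Pro, Ent-Pro or ENT was left out (0.0602 to 0.269). The 95% intervals of the other 7 differences all reached past 0.5 (log2) in at least 1 direction, so changes of that size were not excluded. Ifit1, near background in ISC, was not called either (limma adjusted p = 0.109). Its mean level in Ent-Pro was at least 2.79-fold higher, and the 95% interval of the difference ran from 0.13 to 2.99 (log2). All 10 enterocyte markers were higher in Ent-Pro than in ISC. ENT and ISC differed in 7 members, all higher in ENT, where 22.3% of genes were called higher. Usp18 was 53.6-fold higher (limma adjusted p = 4.8e-06), Ifit1 at least 16.1-fold by group means, and Stat2 2.03-fold. The ENT arrays of Ifit1 read 7.51 and 10.08. Its difference had a 95% interval of 2.66 to 5.52 (log2) and ran from 2.81 to 5.37 over the alternative fits described below. Bounds for Ifit1 in this paragraph and the next set its level in ISC to the absent control plus 1 (log2). They bound the ratio of group means and leave out the spread between arrays. The difference of Rsad2 was 1.31 (log2) without the second ENT array. Lymphocyte markers were called higher in ENT than in ISC for 9 of 12, and enterocyte markers for 10 of 10. The part of these cells was not tested.

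The Sec-Pro groups were each set against Ent-Pro and ISC. These comparisons share arrays, so their values are given side by side. Genotype or treatment, and against ISC also sorting, differ along with cell type and cannot be told apart from it. Against Ent-Pro, 8 of 8 members were higher in Rbpj Sec-Pro (9.37% of genes called higher), and 0 of 8 were called in DBZ Sec-Pro (18.6% of genes called in either direction). Ifit1 was 15.8-fold higher in Rbpj Sec-Pro (limma adjusted p = 0.00445), Usp18 15.7-fold, Oasl2 9.38-fold, Rsad2 8.86-fold and Ifit3 6.52-fold. In DBZ Sec-Pro against Ent-Pro the differences lay between -0.28 and 0.87 (log2), limma adjusted p ran from 0.121 to 0.907, and 1 member, Usp18, had an unadjusted p under 0.05. The 95% intervals there allowed a difference of up to 1.65 for Usp18 and down to -1.57 for Ifit1, so equal levels were not shown. Against ISC, 8 of 8 members were higher in Rbpj Sec-Pro (17.7% of genes called higher) and 1, Usp18, in DBZ Sec-Pro (15.9%), by 1.96 (limma adjusted p = 0.00235). Ifit1 was at least 44.0-fold higher in Rbpj Sec-Pro than in ISC, Usp18 33.5-fold, and Stat2 by 0.59 (limma adjusted p = 0.0415), which became 0.27 without the first ISC array (0.261) and 0.90 without the second, and which was also not called without any array of the other 3 groups (0.0546 to 0.0611). Other cell types moved with these differences. Lymphocyte markers were higher in Rbpj Sec-Pro for 5 of 12 against Ent-Pro and 10 of 12 against ISC, and enterocyte markers for 6 of 10 and 10 of 10. In DBZ Sec-Pro the lymphocyte counts were 1 and 6 of 12 in the same order, and all 10 enterocyte markers were higher than in ISC. The part of these cells was not tested. Ifit2 and Stat2 were also not called against Ent-Pro without the first Rbpj Sec-Pro array (limma adjusted p = 0.104 and 0.0763) or without either Ent-Pro array, and against ISC without the first Rbpj Sec-Pro array (0.0825 and 0.187); Ifit2 was not called against ISC without either ISC array (0.0709 and 0.0969).

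The 2 groups with high levels came from crypts and from villi. Between them 1 of 8 members was called, where 4437 of 12393 genes were called in either direction. Ifit2 was lower in ENT than in Rbpj Sec-Pro by -1.51 (limma adjusted p = 0.0179; 14.8% of genes called lower), a value that was -0.73 without the first ENT array and that was not called without the first Rbpj Sec-Pro array (0.0608). Without the second ENT array it was -2.28, which is measured against a first array near background. The other 7 differences had limma adjusted p from 0.102 to 0.816. Their 95% intervals reached -2.88 for Ifit1 and 1.46 for Usp18. ENT differs from either Sec-Pro group in genotype or treatment, cell type and position, which cannot be told apart here. ENT was above DBZ Sec-Pro for 7 of 8 members (23.3% of genes called higher); Ifit1 differed there by 1.38 without the second ENT array and was not called without the second DBZ Sec-Pro array (limma adjusted p = 0.0538).

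**Figure D3:**
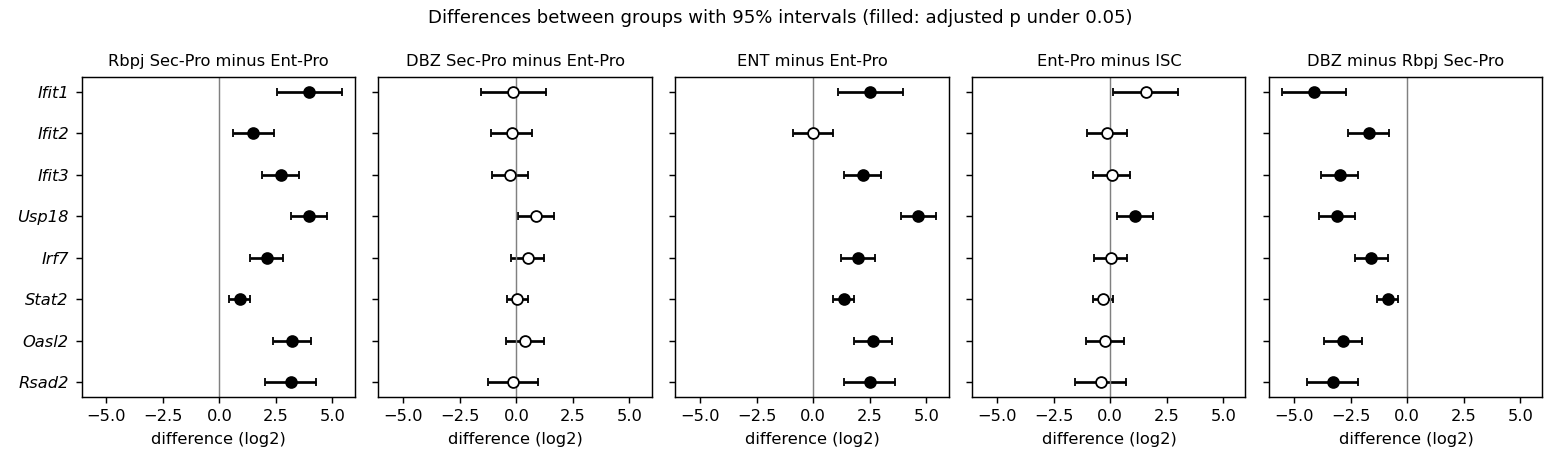
Log2 differences of the members in 5 of the comparisons (points, filled where the adjusted p was under 0.05) with 95% intervals from limma (bars). The differences run from -0.28 to 0.87 in DBZ Sec-Pro against Ent-Pro, where none is filled, and from -4.12 to -0.85 in DBZ Sec-Pro against Rbpj Sec-Pro, where all are.

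The comparison of Rbpj Sec-Pro with DBZ Sec-Pro and that of ENT with Ent-Pro share no array. Their calls are still not independent, because the spread of each gene was estimated once from all arrays. The members were also chosen with values of these arrays known, so the counts below are a description. Being higher in Rbpj Sec-Pro than in DBZ Sec-Pro and also in ENT than in Ent-Pro was found for 7 of 8 members. Over all genes 501 (4.04%) met both conditions, and of 35 other interferon-stimulated genes 13 did (37.1%). These 13 were Adar, Cmpk2, Ifi35, Nmi, Oas1a, Oas3, Oasl1, Parp12, Parp14, Parp9, Rtp4, Sp100 and Trim30a. Enterocyte markers were called in the same directions in both comparisons, 5 of 10 and 8 of 10, and their part in this overlap was not tested.

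**Figure D4:**
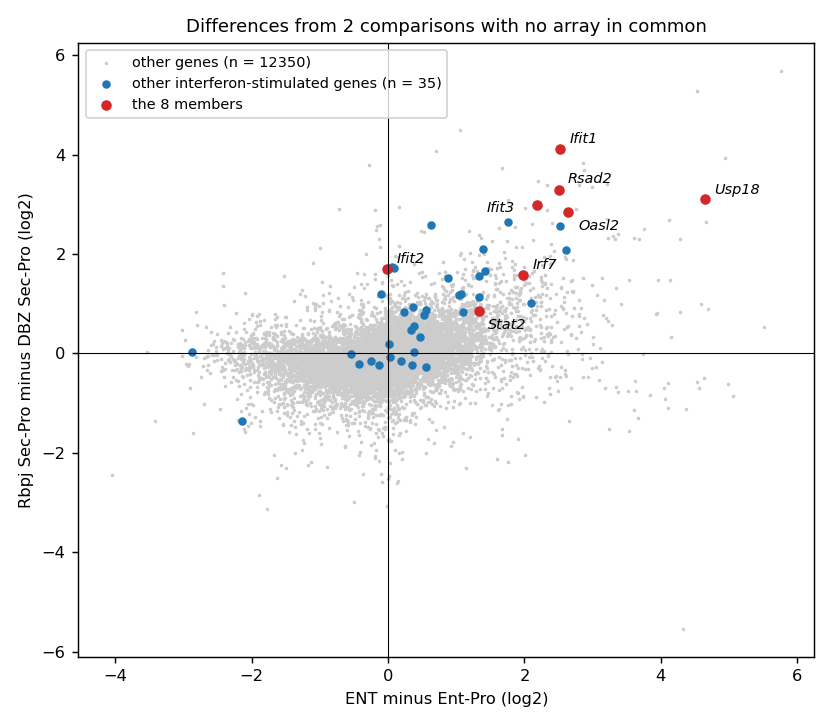
Log2 difference of ENT minus Ent-Pro (x axis) against that of Rbpj Sec-Pro minus DBZ Sec-Pro (y axis) for each of 12393 genes, with the 8 members and 35 other interferon-stimulated genes marked. Of the members 7 lie in the upper right, from Stat2 (1.34 and 0.85) to Usp18 (4.65 and 3.11), and Ifit2 lies at -0.01 on the x axis.

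The rest of the pathway was counted from lists of genes by function, written with earlier results of these arrays known. Of 19 interferon genes, 10 were measured. Their values lay between 3.71 and 6.02 (log2), where the absent control averaged 3.62 to 3.82, and Ifna11, Ifnab and Ifng were near background on every array. Ifna1 read between 4.34 and 5.68. In ENT against Ent-Pro 1 interferon was called higher, and 1 was called higher in DBZ Sec-Pro than in Rbpj Sec-Pro. In ENT against Rbpj Sec-Pro 5 of 10 were called higher and 0 lower, where 2606 of 12393 genes were called higher. In ENT against ISC and against DBZ Sec-Pro 3 were called higher and 0 lower, where 22.3% and 23.3% of genes were called higher.

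Over all genes 18.5% were called higher and 20.2% lower in ENT against Ent-Pro, and 9.34% higher and 7.08% lower in DBZ against Rbpj Sec-Pro, and the counts of each list are to be read against these shares. Of 5 receptor subunits measured 4 were higher in ENT than in Ent-Pro: Ifnar2, the signalling chain of the type I receptor, by 2.34 (limma adjusted p = 6.01e-05), Ifngr2 by 1.72, Il10rb, shared by the type III and other receptors, by 1.58, and Ifnar1 by 0.86. Between the Sec-Pro groups no receptor was called, with a median difference of -0.02 (log2, DBZ minus Rbpj). All 5 were called higher in ENT than in Rbpj Sec-Pro, with a median difference of 0.98. Of 5 JAK-STAT mediators 4 were higher in ENT than in Ent-Pro. Irf9, the DNA-binding partner in ISGF3, rose by 1.56 (limma adjusted p = 0.000434), and it was the 1 of 5 that was lower in DBZ Sec-Pro than in Rbpj Sec-Pro, by -1.16 (limma adjusted p = 0.00975). Of 9 negative regulators 2 were higher and 2 lower in ENT, near the shares over all genes, and their median difference between the Sec-Pro groups was 0.09. Ptpn2, a phosphatase that dampens JAK and STAT proteins, was highest in ISC at 11.65 and 11.63.

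Sensors of viral nucleic acids and the enzymes that attach Isg15 to proteins were counted next. Of 12 sensors and adaptors 6 were higher and 1 lower in ENT than in Ent-Pro, and 3 were lower in DBZ than in Rbpj Sec-Pro. Zbp1, which senses unusual nucleic acid forms, rose by 2.85 in ENT (limma adjusted p = 0.000975) and was -1.52 in DBZ relative to Rbpj Sec-Pro (limma adjusted p = 0.0469). Dhx58, a helicase of the RNA-sensing family, moved by 1.40 and -1.99 in these comparisons. Of 3 Isg15 conjugation genes 3 were higher in ENT, and 1 was lower in DBZ Sec-Pro. That was Ube2l6, the conjugating enzyme, with 2.30 (limma adjusted p = 0.000175) and -1.39 (limma adjusted p = 0.00976).

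Of 35 other interferon-stimulated genes 14 were higher and 3 lower in ENT than in Ent-Pro, where 18.5% and 20.2% of all genes were, with a median of 0.38 (log2) against 0.02 over all genes. In DBZ against Rbpj Sec-Pro 17 were lower and 1 higher, where 7.08% and 9.34% of all genes were, with a median of -0.84 against 0.06. Rbpj Sec-Pro exceeded Ent-Pro in 17 and was lower in 2, against 9.37% and 16.9% of all genes. Oasl1 differed by 2.61 in ENT minus Ent-Pro and by -2.08 in DBZ minus Rbpj Sec-Pro, Rtp4 by 2.52 and -2.56, and Parp12, an antiviral enzyme that modifies proteins with ADP-ribose, by 2.10 and -1.01. Ifitm3, a membrane protein that blocks virus entry, went the other way in the villus: it was lower in ENT by -2.88 and differed by -0.03 between the Sec-Pro groups (limma adjusted p = 0.954).

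Of 14 genes known mainly for induction by interferon gamma, 1 was called in ENT against Ent-Pro, Ciita, which was lower. In DBZ against Rbpj Sec-Pro 2 of them were lower, and in Rbpj Sec-Pro against Ent-Pro 4 were higher, where 7.08% and 9.37% of all genes were. In ENT against ISC 3 were higher and 5 lower, where 2769 and 3325 of all 12393 genes were. Ido1, which degrades tryptophan, was lower by -2.13 in DBZ than in Rbpj Sec-Pro (limma adjusted p = 0.0345) and differed by -0.12 between ENT and Ent-Pro. It read 9.50 and 7.68 in Rbpj Sec-Pro and between 4.00 and 4.86 in ISC, Ent-Pro and ENT. The list's mean, each gene centred on its own mean over the arrays, was 1.38 on the first and -0.06 on the second Rbpj Sec-Pro array, which differ in lymphocyte markers as given above; the part of those cells was not tested. Of 9 antigen processing genes 3 were higher and 1 lower in ENT than in Ent-Pro, and their median difference between the Sec-Pro groups was -0.13.

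**Figure D5:**
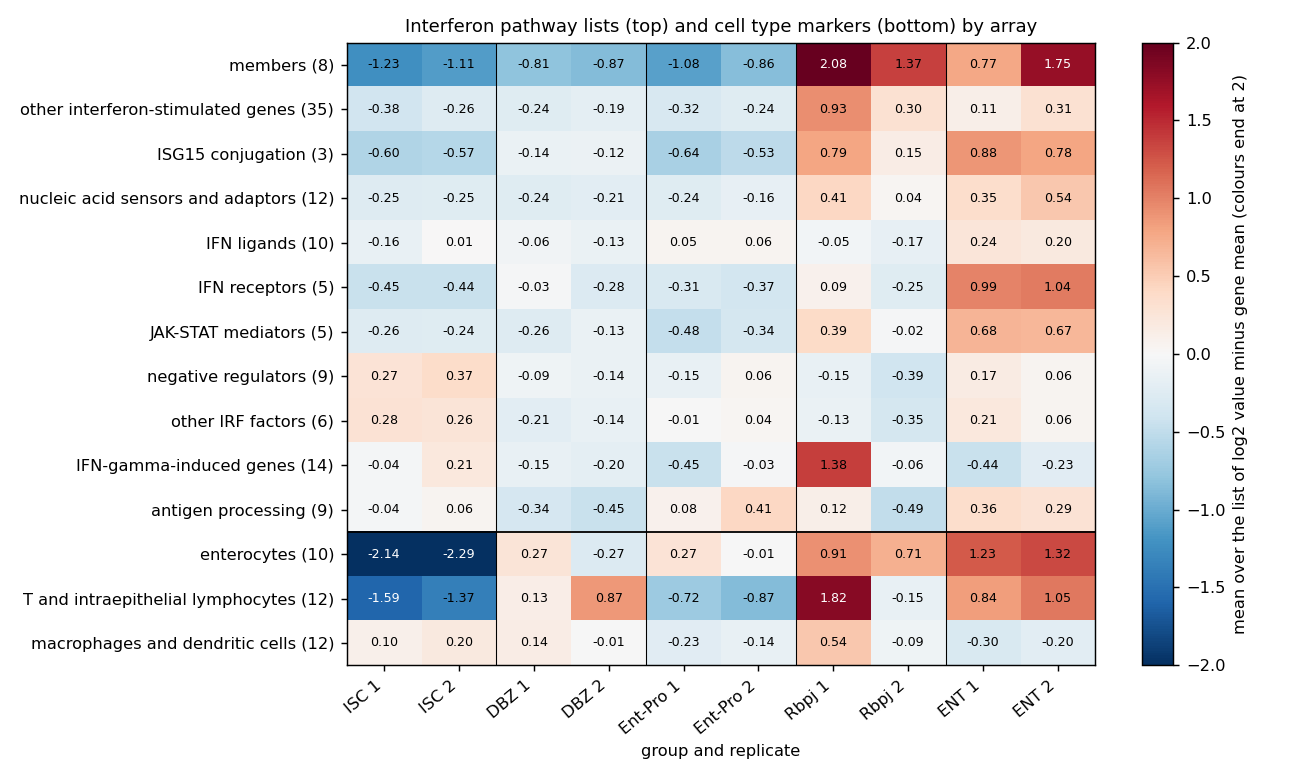
Heat map of gene lists (rows) by array (columns), in which colour and printed value are the list's mean with each gene centred on its own mean over the 10 arrays (log2), for the members, the pathway lists and 3 marker lists. The members lie at 2.08 and 1.37 in Rbpj Sec-Pro and at 0.77 and 1.75 in ENT, and between -1.23 and -0.81 in the other groups.

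Genes outside the members were ranked by how their levels on the 10 arrays followed the members' mean, among 3680 genes with a standard deviation of at least 0.5 (log2). The 8 closest, by Pearson correlation over the arrays as a description, were Parp14 (0.990), Tmprss15 (0.982), Gm9706 (0.982), Rtp4 (0.979), Ddx60 (0.977), Cyp1a1 (0.976), Oas3 (0.972) and Sp100 (0.969). All arrays are shared between the genes ranked, and several of these genes are known to be induced by interferon. The dropped probe set of Isg15 also carries the symbol Gm9706, and whether the probe set used here for Gm9706 measures Isg15 was not tested. Tmprss15 is the gut protease enteropeptidase and Cyp1a1 is a xenobiotic-metabolising enzyme. Cyp1a1 read 11.05 and 8.78 in Rbpj Sec-Pro, 9.29 and 10.13 in ENT, and between 4.58 and 5.55 elsewhere. Each member's correlation with the mean of the others ran from 0.62 for Ifit2 to 0.975 for Oasl2.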

How the data were processed

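The values are on a log2 scale as deposited by the authors, for 22690 probe sets on 10 arrays. The submitters' processing notes name RMA and MAS5 without saying what each did. Array medians lay between 6.83 and 6.98, and no further scaling was applied; the number of arrays, not a count of reads, limits the precision.

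Gene names came from the platform's annotation, under which 20393 probe sets carry 1 symbol, 691 several and 1606 none. Only the first kind was kept, minus any of 64 controls. The brightest probe set stood for its gene (12393 genes, no filter on dim genes), which among the members mattered for Stat2 and Rsad2. All arrays entered a linear model with 5 group means in limma 3.58.1 (lmFit and eBayes, R 4.3.3, 5 residual and 3.75 prior degrees of freedom), with 10 pairwise comparisons. A gene was called at a Benjamini-Hochberg adjusted p under 0.05 over all genes. The bound for near background was set after the data were seen. The script was tested on simulated data with 200 changed genes.

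The named genes were the members, up to 4 called members of each of the 10 pathway lists with the widest range of group means, and the 8 genes most like the members' mean. The members and lists were chosen with earlier results of these data known. Alternatives covered scaling, probe set choice, dim genes, the arrays fitted, the variance prior, a replicate block and leaving out each array.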

Additional observations from a re-analysis of the deposited data

How the results depend on the processing

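Of 48 called member differences 34 kept their call under every alternative that gave a value and 0 changed sign. Median centring, quantile normalization and cyclic loess lost 0 calls; cyclic loess moved the median of all genes by 0.13 (log2) in Rbpj Sec-Pro against ISC and 0.11 in Rbpj Sec-Pro against Ent-Pro, and median centring by 0.11 in ENT against DBZ Sec-Pro. Leaving out 1 array at a time gave 0 to 1 called members in Ent-Pro against ISC, 6 to 8 in ENT against Ent-Pro, 7 to 8 in ENT against ISC, 6 to 8 in Rbpj Sec-Pro against ISC and against Ent-Pro, 1 to 2 in DBZ Sec-Pro against ISC, 0 to 1 in DBZ Sec-Pro against Ent-Pro, 4 to 8 in DBZ against Rbpj Sec-Pro, 1 to 3 in ENT against Rbpj Sec-Pro and 6 to 8 in ENT against DBZ Sec-Pro. These counts cover either direction: without the second ENT array 7 members were higher and 1, Ifit2, lower in ENT against Ent-Pro, without the first ISC array 1 was lower and 0 higher in Ent-Pro against ISC, and without the first Rbpj Sec-Pro array 1 was higher and 0 lower in ENT against Rbpj Sec-Pro. With the left-out array's partner alone, that array is assumed to vary like the other groups. Among genes above the median level 4 members remained to be tested, and 4 were called in ENT against Ent-Pro, ISC and DBZ Sec-Pro, in Rbpj Sec-Pro against ISC and Ent-Pro and in DBZ against Rbpj Sec-Pro, and 0 in ENT against Rbpj Sec-Pro. Fitting only the arrays of both groups gave 2 in Ent-Pro against ISC, 4 in DBZ Sec-Pro against ISC, 1 in DBZ Sec-Pro against Ent-Pro, 5 in DBZ against Rbpj Sec-Pro and 0 in ENT against Rbpj Sec-Pro. The dimmest probe set, the mean of probe sets and the replicate block each gave 0 in Ent-Pro against ISC. The replicate numbers share only a number (correlations of the within-group difference across genes of -0.192 to 0.174), and the block also lost Stat2 in Rbpj Sec-Pro against ISC (limma adjusted p = 0.0555). Over all genes, 2036 calls in DBZ against Rbpj Sec-Pro became 97 with only those arrays, 1167 above the median level, 1018 without the first Rbpj Sec-Pro array, and 1273 and 363 without the first or second DBZ Sec-Pro array. In Rbpj Sec-Pro against Ent-Pro 3255 became 705 with only those arrays, 2142 above the median level, 1459 without the first Rbpj Sec-Pro array, and 899 and 824 without an Ent-Pro array. In ENT against Rbpj Sec-Pro 4437 became 2208 with only those arrays, 2948 above the median level and 2735 without the first ENT array, and in Rbpj Sec-Pro against ISC 5832 became 3859 above the median level. Over all single arrays left out, 3165 in Ent-Pro against ISC became 1704 to 3656, fewest without the second Ent-Pro array, and 2307 in DBZ Sec-Pro against Ent-Pro became 1045 to 2856, fewest without the first Ent-Pro array. The cause of these changes was not tested.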

Other observations

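The 2 Rbpj Sec-Pro arrays differed in several marker lists as well as in the members. The mean of the 6 stem cell markers measured was 7.27 on the first and 8.44 on the second array, and that of the 6 tuft cell markers was 6.48 and 8.64. The mean of the 12 macrophage and dendritic cell markers was 6.46 and 5.82. Within that list Csf1r, the receptor of the macrophage growth factor, read 8.35 and 5.94. Flt3 read 6.17 and 5.88, and Adgre1 read 5.28 on both arrays. Gzma, a granule protease of cytotoxic lymphocytes, read 13.25 and 11.05. In ENT the Paneth cell list mean was 7.17 on the first and 9.38 on the second array.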
